A study of Mus musculus with 16 samples.

Results

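Keratins are the proteins of the intermediate filaments of epithelial cells. The keratin genes described here are those rows of the gene count table whose symbol is Krt followed by digits only and whose read count reached 10 or more in at least 4 of the 16 libraries. Of 50 genes with such a name, 30 met the rule, among 55359 genes in the table. The rule uses counts over all libraries, without regard to the groups. The members, classes and gene lists were nonetheless chosen with earlier results of these data known. They comprise 15 type I keratins (acidic) and 15 type II keratins (basic to neutral), 14 of the genes lying on chromosome 11 and 16 on chromosome 15. By class they are 3 basal keratins (Krt5, Krt14, Krt15), 4 suprabasal keratins of oral mucosa (Krt4, Krt13, Krt76, Krt78), 2 keratins of cornified layers (Krt1, Krt10), 2 stress-induced keratins (Krt16, Krt17), 5 keratins of simple epithelia (Krt7, Krt8, Krt18, Krt19, Krt20), 6 hair and nail keratins (Krt32, Krt75, Krt82, Krt83, Krt84, Krt87) and 8 others (Krt12, Krt23, Krt24, Krt42, Krt79, Krt80, Krt90, Krt222). The 20 genes below the rule include 7 with no count in any library, and their highest count in 1 library was 32. Krt82, Krt83 and Krt87 stood just inside the rule, with a fourth-highest count of 11, 13 and 15, and Krt86, Krt39 and Krt2 just outside it, with 6, 3 and 2. Counts of 10 were reached in all 16 libraries by 14 members and in libraries of all 4 groups by 24. Krt32 alone met the rule only through libraries without a ligature.

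RNA was sequenced from periodontal ligament, the connective tissue between tooth root and bone, of wild-type male C57BL/6J mice aged 9 weeks at treatment. The 16 libraries fall into 4 groups of 4. In the ligature group a silk ligature was tied around an upper left molar, which brings on periodontitis. In the ligature plus trauma group the molar received that ligature and a build-up of composite resin on its chewing surface, which overloads the tooth in occlusion. The trauma group had the resin alone, and the control group had no treatment. The labels give neither the time between treatment and sampling nor whether a library came from 1 mouse or from several. What the p-values weigh is the scatter among libraries as labelled, part of which may be technical.

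Keratin filaments are built from pairs of 1 type I and 1 type II chain, so the genes work in partnerships. In stratified epithelium Krt5 and Krt14 form the network of the dividing basal layer. Cells that leave it switch to Krt4 and Krt13 in the soft lining mucosa of the mouth, or to Krt1 and Krt10 where the surface cornifies, as on the gingiva and palate. Krt6, Krt16 and Krt17 are switched on in wounded or inflamed epithelium, and Krt8, Krt18 and Krt19 belong to simple epithelia and, in the gingiva, to the junctional epithelium that seals gum to tooth. The periodontal ligament itself is connective tissue, whose own epithelium is the sparse epithelial cell rests of Malassez, known to carry Krt5, Krt14 and Krt19.

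Total counts per library ranged from 58458102 to 77468584. The levels below are CPM, counts scaled to a common library total after trimmed-mean normalisation. The 7 genes listed for ligament fibroblasts (Postn, Tnmd, Scx, Col1a1, Col3a1, Aspn, Thbs4) together stood at 28722 to 57709 CPM with a ligature and 36107 to 86529 CPM without one. Such a sum cannot tell how much other tissue, such as gingiva, was in a sample. The libraries 2 and 3 of ligature plus trauma, along with ligature 2, had relatively more counts in genes of short transcripts than the other 13 libraries. Counts of changed keratins are therefore given with and without them. Genes were compared with edgeR's quasi-likelihood test on the counts of all 16 libraries, with p-values adjusted by Benjamini-Hochberg over 20953 genes, and passed at an adjusted p under 0.05. All 30 keratins were among the genes tested.

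Measured per kilobase of exon, so that genes can be set side by side, Krt14 led with a mean level of 2012 CPM per kilobase over the 16 libraries. Krt17 followed at 537, Krt13 at 383, Krt4 at 279, Krt16 at 248 and Krt5 at 197, and Krt10 came next at 38.2. Krt14 made up 54.1 to 66.1% of all counts of the 30 keratins in the 8 libraries with a ligature and 38.5 to 63.6% in the 8 without. The 30 genes together took 0.0928 to 0.323% of all counts with a ligature and 0.161 to 3.12% without. In single libraries the share was 0.301, 0.222, 0.187 and 0.201% in ligature 1 to 4, 0.323, 0.115, 0.142 and 0.0928% in ligature plus trauma 1 to 4, 1.19, 1.14, 3.12 and 0.51% in trauma 1 to 4 and 1.45, 1.37, 0.347 and 0.161% in control 1 to 4. Control 4 thus lay inside the range of the libraries with a ligature, and trauma 3 held the highest share of all. In bulk tissue such as this, fewer epithelial cells and less keratin RNA per cell cannot be told apart.

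**Figure D1:**
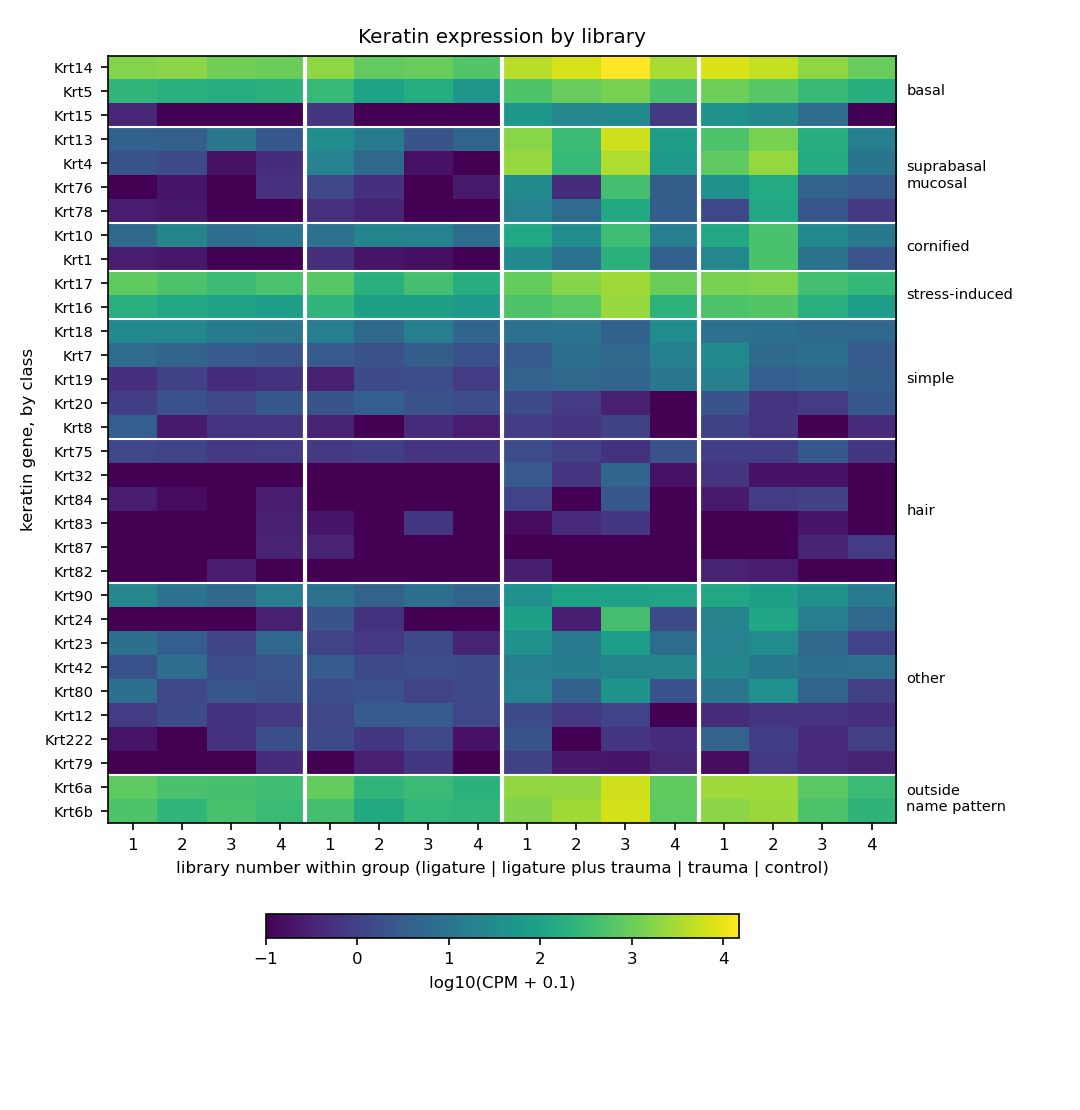
Level of each of the 30 keratins, and of Krt6a and Krt6b, in each library, as log10(CPM + 0.1), with genes in rows by class and libraries in columns by group. The 8 columns at the left, with a ligature, are darker for the suprabasal mucosal and cornified rows than the 8 at the right. Krt14 has the highest value of the column in every library.

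Over the average of both ligature groups against the average of both groups without a ligature (8 against 8 libraries, within the fit of 4 groups), 20 of the 30 keratins were lower with the ligature and 0 higher. Of all genes tested, 10.7% passed as lower in that comparison and 10.8% as higher, or 21.5% in all. The 8 libraries with a ligature lay wholly below the 8 without for 4 keratins (Krt1, Krt19, Krt42 and Krt78), where 2.05% of all genes did so. The median log2 fold change was -2.78 over the keratins and -0.05 over all genes tested. The 20 include Krt32, which met the count rule only through libraries without a ligature. Of the others, Krt1, Krt15, Krt24, Krt76, Krt78 and Krt84 reached 10 counts in at most 2 libraries of either ligature group. Those genes met the rule mainly through libraries without a ligature, so a lower value with one was partly built into their choice. By class, 3 of 3 basal, 4 of 4 suprabasal mucosal, 2 of 2 cornified, 2 of 2 stress-induced, 2 of 5 simple, 2 of 6 hair and 5 of 8 other keratins fell. Without any adjustment, 20 keratins had p under 0.05 as lower and 0 as higher, where 17.6% of all genes did as lower and 17.7% as higher. DESeq2 called 19 lower and 0 higher, in a fit where 27.3% of all genes passed in either direction. With limma-voom and sample weights, where 22.1% of all genes passed, 11 of the 20 passed as lower, and Krt1, Krt7, Krt15, Krt23, Krt24, Krt76, Krt78, Krt80 and Krt84 did not. Without the 3 libraries rich in short transcripts, 15 keratins passed as lower, in a fit where 13.1% of all genes passed in either direction. The direction for the 20 genes was lower in that fit too, and Krt7, Krt16, Krt17, Krt80 and Krt84 no longer passed.

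**Figure D2:**
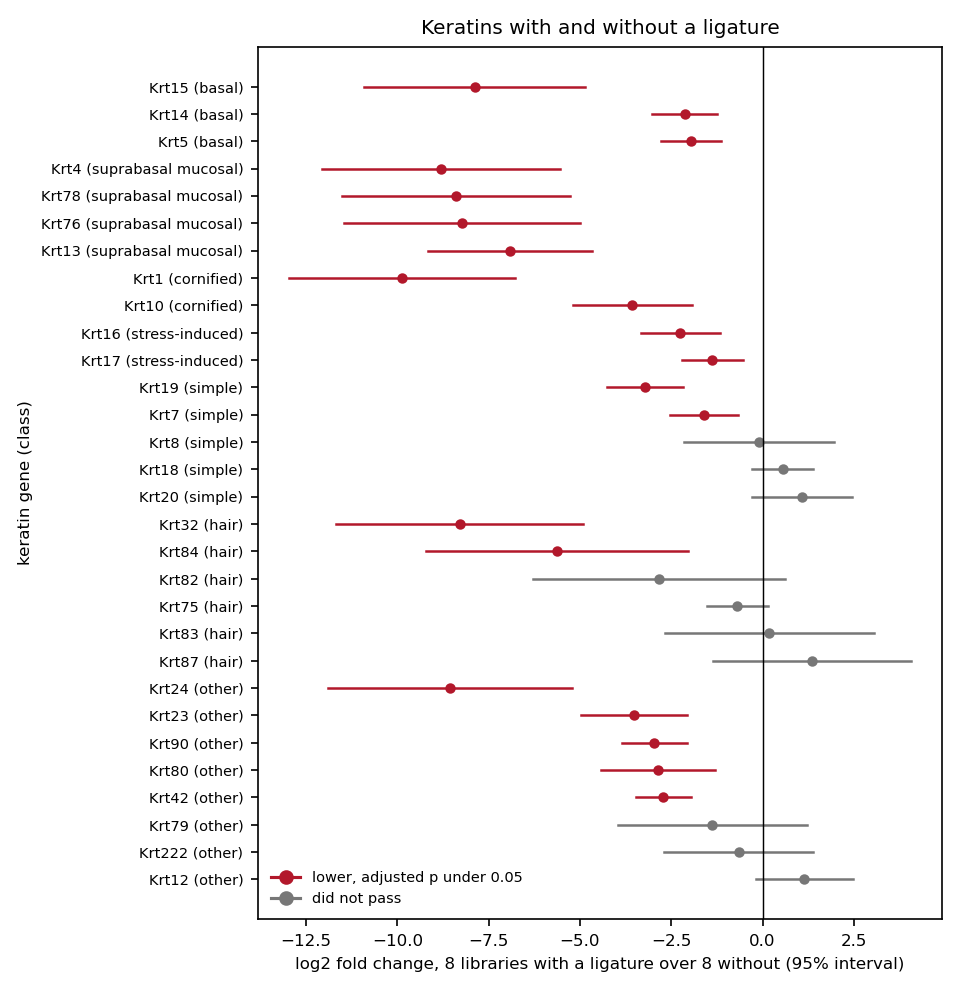
Log2 fold change of each of the 30 keratins between the 8 libraries with a ligature and the 8 without, with 95% intervals from edgeR, grouped by class. Red points, all left of 0, are the 20 genes that passed; the suprabasal mucosal genes lie between -8.81 and -6.92, while Krt5 and Krt14 lie near -2. The fitted value of Krt32, which had no count in any ligature library, depends on the prior count of the fit.

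Among the basal keratins, Krt14, the type I chain of the basal layer, had 1579, 1822, 1129.9 and 1025 CPM in the ligature libraries, 1912, 856, 919 and 578 in ligature plus trauma, 4083, 7156, 14682 and 3250.1 in trauma and 7388, 5259, 2078 and 936 in control. The highest library with a ligature, ligature plus trauma 1, was below every library without one except control 4. The log2 fold change, 8 against 8, was -2.13 ± 0.42 (SE, adjusted p = 0.00216). Krt5, its type II partner, had 254, 192, 163 and 205 CPM in the ligature libraries, 290.1, 99.5, 159 and 53.6 in ligature plus trauma, 549, 923, 1367 and 482 in trauma and 1045, 678, 303 and 176 in control. Ranges overlapped only through control 4, and Krt5 fell by a like amount (-1.95 ± 0.39, adjusted p = 0.00229). Krt15, a type I keratin of basal cells that marks slow-cycling ones in skin, had 0.252, 0, 0 and 0 CPM in the ligature libraries, 0.552, 0, 0 and 0 in ligature plus trauma, 56.6, 24.1, 29.7 and 0.651 in trauma and 43.6, 27.4, 6.95 and 0 in control. It was at 0 in 6 of the 8 libraries with a ligature, and in control 4, while 6 of the 8 without a ligature held 6.95 CPM or more. Krt15 fell (-7.89 ± 1.42, adjusted p = 0.00113). Relative to Krt14 and per kilobase, Krt5 kept a narrow range over all 16 libraries, 7.17 to 15.4% of Krt14 with a ligature and 7.2 to 14.5% without.

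The 4 keratins of the suprabasal oral mucosa had a median log2 fold change of -8.32, the lowest of the 7 classes. Krt13, the type I keratin of lining mucosa, had 3.89, 3.53, 10.9 and 2.61 CPM in the ligature libraries, 33.3, 13.5, 2.11 and 4.5 in ligature plus trauma, 1742, 331, 5886 and 74.4 in trauma and 522, 1318, 176 and 16.4 in control. Only ligature plus trauma 1 among the libraries with a ligature was above control 4, and the other 7 libraries without a ligature stood at 74.4 CPM or more. Its log2 fold change was -6.92 ± 1.06 (adjusted p = 0.000341). Krt4, the type II partner of Krt13, had 2.06, 1.42, 0.0687 and 0.373 CPM in the ligature libraries, 19.5, 5.93, 0.0789 and 0 in ligature plus trauma, 2327, 285, 3599.8 and 63.1 in trauma and 802, 2253, 151 and 10.2 in control. It fell (-8.81 ± 1.54, adjusted p = 0.000896). Here too ligature plus trauma 1 was the highest library with a ligature and control 4 the lowest without. Krt76, a type II keratin of palate and gingiva, had 0, 0.0976, 0 and 0.442 CPM in the ligature libraries, 1.23, 0.41, 0 and 0.138 in ligature plus trauma, 30.2, 0.367, 439.7 and 3.31 in trauma and 44.5, 145, 4.3 and 2.81 in control. Krt78, a type II keratin of stratified epithelia, had 0.158, 0.117, 0 and 0 CPM in the ligature libraries, 0.442, 0.242, 0 and 0 in ligature plus trauma, 19.7, 6.17, 138 and 3.27 in trauma and 1.22, 125, 2.26 and 0.618 in control. Both fell, with log2 fold changes of -8.23 ± 1.52 for Krt76 (adjusted p = 0.00136) and -8.40 ± 1.48 for Krt78 (adjusted p = 0.000937). For Krt78 the groups with and without a ligature did not overlap, whereas for Krt76 they did through trauma 2. Within the groups without a ligature the spread was large: Krt13 ran from 16.4 to 5886 CPM across those 8 libraries.

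**Figure D3:**
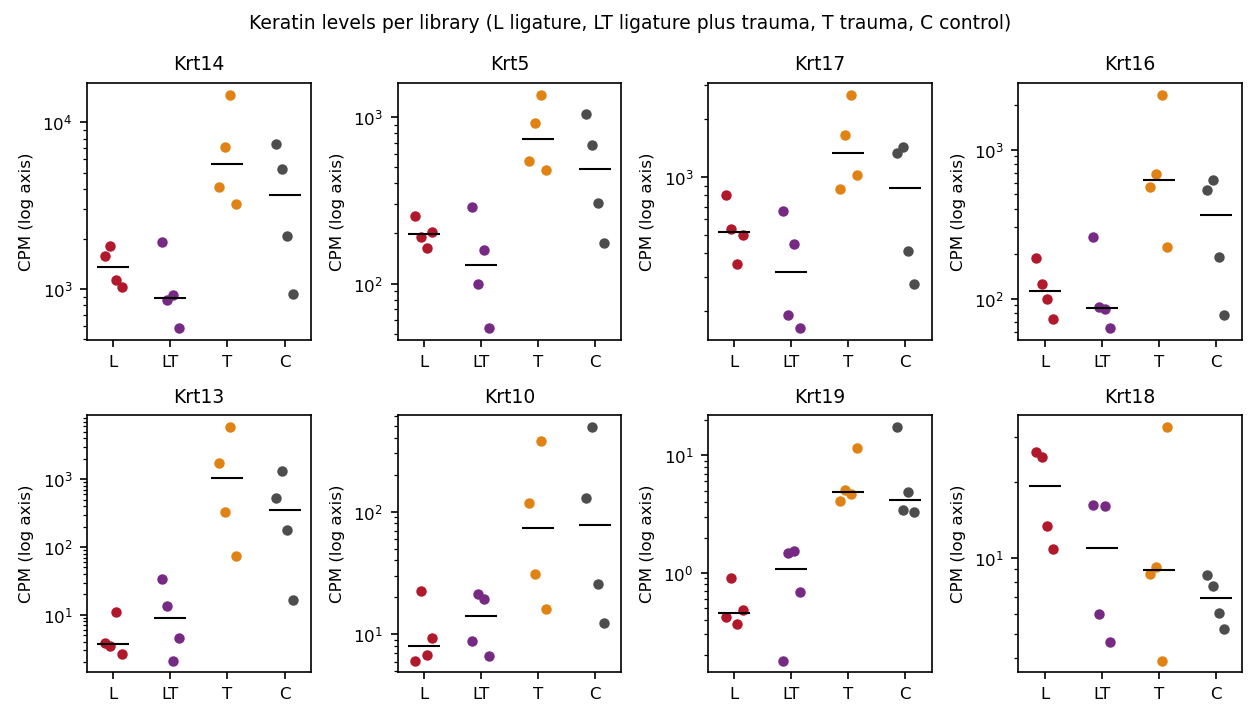
CPM per library (log axis) of 8 keratins in the ligature (L), ligature plus trauma (LT), trauma (T) and control (C) groups, with a bar at each group's median of 4 libraries. The medians of Krt13 and Krt19 are lower in both ligature groups, and Krt18 shows no such fall. Of the 8 genes, Krt19 alone has no overlap between libraries with and without a ligature. For Krt14, Krt5, Krt17, Krt16, Krt13 and Krt10 the lowest control library lies within the range of the libraries with a ligature.

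The cornified-layer pair was low as well. Krt1, the type II keratin of cornifying layers, had 0.142, 0.117, 0 and 0 CPM in the ligature libraries, 0.414, 0.0932, 0.0592 and 0 in ligature plus trauma, 29.8, 8.45, 208 and 3.84 in trauma and 24.8, 490.1, 9.72 and 2.22 in control. The groups did not overlap: the highest library with a ligature, ligature plus trauma 1, had 0.414 CPM, and the lowest without, control 4, had 2.22 CPM. Krt1 had the lowest fitted log2 fold change of the 30 (-9.88 ± 1.46, adjusted p = 0.000251). Krt10, its type I partner, had 6.1, 22.5, 6.79 and 9.26 CPM in the ligature libraries, 8.75, 21.2, 19.3 and 6.72 in ligature plus trauma, 117, 30.9, 372 and 16.2 in trauma and 129, 489, 25.8 and 12.3 in control. Krt10 fell less (-3.57 ± 0.77, adjusted p = 0.00389), and its groups overlapped through trauma 4 and control 4. The pair did not keep its proportion. Per kilobase, Krt1 was 0 to 4.07% of Krt10 with a ligature and 15.6 to 86.3% without. Control 2 had the highest Krt1 and Krt10 of all libraries, with 490.1 and 489 CPM. The remaining keratins of cornified layers in the table, Krt2, Krt9 and Krt77, were below the count rule.

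The stress-induced keratins were lower on average with the ligature. Krt17, a type I keratin that wounded and inflamed epithelium makes, had 806, 533, 352 and 496 CPM in the ligature libraries, 663, 190.1, 447 and 162 in ligature plus trauma, 865, 1654, 2686 and 1025 in trauma and 1332, 1439, 409.9 and 277 in control. Control 3 and control 4 lay inside the range of the libraries with a ligature, and the other 6 libraries without one lay above it. The average over 8 against 8 was nonetheless lower (-1.38 ± 0.40, adjusted p = 0.0211). Krt16, the type I partner of Krt6 in wounded epithelium, had 186, 126, 99.2 and 73.4 CPM in the ligature libraries, 257, 87.6, 85.1 and 63.1 in ligature plus trauma, 559.5, 686, 2331 and 221 in trauma and 534, 620.2, 192 and 77.2 in control. It fell (-2.25 ± 0.51, adjusted p = 0.00522). Both calls were lost without the 3 libraries rich in short transcripts (adjusted p = 0.11 for Krt17 and 0.0581 for Krt16), with log2 fold changes of -1.30 and -2.08. Krt6a and Krt6b, the type II partners that the name pattern leaves out, had medians over 8 libraries of 420.1 and 296 CPM with a ligature and 2076 and 1738 CPM without. Krt6a ran from 205 to 866 CPM with a ligature and from 330 to 6230 CPM without. Krt6b ran from 137 to 557 and from 225 to 6833 CPM. Control 3 and control 4 lay inside both ranges with a ligature, and trauma 4 inside that of Krt6a. Both fell on average, 8 against 8 (Krt6a -2.16 ± 0.48, adjusted p = 0.00507, and Krt6b -2.56 ± 0.50, adjusted p = 0.00212). Of these 2 genes, 0 passed in ligature against control, and 1 passed as lower in ligature plus trauma against control. The type I genes Krt14, Krt16, Krt17 and Krt42 are close to each other in sequence, as are the type II genes Krt6a and Krt6b, so reads may have been shared within each set.

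The simple-epithelium keratins split. Krt19, the type I keratin of simple and junctional epithelium, had 0.426, 0.898, 0.371 and 0.483 CPM in the ligature libraries, 0.179, 1.47, 1.54 and 0.691 in ligature plus trauma, 4.12, 5.1, 4.71 and 11.5 in trauma and 17.5, 3.45, 4.84 and 3.27 in control. Every library with a ligature was below every library without one, and Krt19 fell (-3.23 ± 0.49, adjusted p = 0.000311). Krt7, a type II keratin of simple and glandular epithelia, had 6.18, 4.37, 3.02 and 2.18 CPM in the ligature libraries, 2.95, 1.79, 3.31 and 1.92 in ligature plus trauma, 2.83, 7.79, 5.76 and 16.7 in trauma and 27.6, 6.01, 7.54 and 2.94 in control. It fell on average, with overlapping groups (-1.61 ± 0.44, adjusted p = 0.0171), a call lost without the 3 libraries (adjusted p = 0.0812) and by limma-voom. Krt18, the type I chain of simple epithelia, had 26.1, 25, 13.4 and 10.9 CPM in the ligature libraries, 16.2, 5.98, 15.9 and 4.65 in ligature plus trauma, 8.61, 9.2, 3.91 and 32.9 in trauma and 8.55, 7.76, 6.05 and 5.23 in control. Trauma 4 had the highest value of the 16, and the groups overlapped. Krt18 did not pass (0.55 ± 0.39, interval -0.28 to 1.38, adjusted p = 0.338), though without trauma 4 it passed as higher (log2 fold change 1.0, adjusted p = 0.0418). Its type II partner Krt8 was near the floor, at 0 to 3.44 CPM with a ligature and 0 to 0.943 without, and did not pass (interval -2.14 to 1.95). Krt20, known from the gut and from Merkel cells, ran from 0.82 to 3.37 CPM with a ligature and from 0 to 2.5 without, and did not pass either (interval -0.28 to 2.45, adjusted p = 0.242).

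The 6 keratins of the hair and nail class were scarce, at 4.75 CPM or less in every library. Krt42, also known from nail and hair but placed among the others, reached 23.9 CPM in trauma 4. Krt32, a type I keratin of the hair cuticle, had no count in the 8 libraries with a ligature, and 557 counts in the 8 without. In single libraries its level was 2.65, 0.511, 4.75 and 0.0814 CPM in trauma and 0.52, 0.0817, 0.0772 and 0 CPM in control. Trauma 1 and trauma 3 held most of these counts. With a floor of 3 counts over a group at 0, Krt32 was at least 163-fold lower in ligature and 152-fold lower in ligature plus trauma than in trauma, and at least 15.6-fold and 14.5-fold lower than in control. Because 3 trauma libraries and 1 control library carried it over the count rule, a difference in this direction was partly built into its choice, and its place among the genes that passed supports nothing further. Krt84, a type II hair keratin also known from the tongue, had 0.142, 0.039, 0 and 0.152 CPM in the ligature libraries, 0, 0, 0 and 0 in ligature plus trauma, 1.01, 0, 2.45 and 0 in trauma and 0.133, 0.722, 0.952 and 0 in control. Krt84 passed as lower (-5.64 ± 1.66, adjusted p = 0.0285). That call rested on few libraries, being lost without trauma 3 (adjusted p = 0.0553) or ligature 2 (0.0515). Krt75, a type II keratin of the hair companion layer, had 1.17, 1.07, 0.619 and 0.718 CPM in the ligature libraries, 0.607, 0.802, 0.533 and 0.507 in ligature plus trauma, 1.54, 0.847, 0.48 and 1.82 in trauma and 0.822, 0.817, 2.6 and 0.604 in control, with no passing difference (interval -1.53 to 0.16). Krt82, Krt83 and Krt87 had at most 0.73 CPM in any library and did not pass.

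Of the other 8 keratins, 5 fell. Krt42, a type I keratin of nail and hair, had 1.88, 6.89, 1.62 and 2.2 CPM in the ligature libraries, 3.16, 1.27, 1.62 and 1.5 in ligature plus trauma, 17.1, 14.7, 22.9 and 23.9 in trauma and 23.5, 12.2, 7.9 and 8.68 in control. Its groups with and without a ligature did not overlap (-2.72 ± 0.35, adjusted p = 9.02e-05). Krt90, a type II keratin, had 24.5, 9.21, 5.94 and 16.5 CPM in the ligature libraries, 8.47, 4.32, 7.85 and 4.8 in ligature plus trauma, 41.1, 98.6, 91.7 and 104 in trauma and 128, 81.5, 38.3 and 12.9 in control. It fell (-2.97 ± 0.42, adjusted p = 0.000176), with overlap through control 4 alone. Reads of Krt42 and Krt90 may also be shared with related keratins. Krt24, a type I keratin of differentiating keratinocytes, had 0, 0, 0 and 0.193 CPM in the ligature libraries, 2.01, 0.485, 0 and 0 in ligature plus trauma, 81.8, 0.176, 432 and 1.51 in trauma and 20.2, 114, 16.1 and 5.58 in control. It was at 0 in 5 libraries with a ligature and fell (-8.57 ± 1.58, adjusted p = 0.00134), although trauma 2 was at 0.176 CPM. Krt23, a type I keratin, had 7.88, 3.44, 1.09 and 5.19 CPM in the ligature libraries, 1.06, 0.634, 1.46 and 0.246 in ligature plus trauma, 40.2, 12.6, 79.0 and 6.69 in trauma and 19.2, 31.4, 5.62 and 0.983 in control, and it fell (-3.52 ± 0.69, adjusted p = 0.00198). Krt80, a type II keratin of differentiating epithelial cells, had 7.58, 1.25, 2.34 and 2.03 CPM in the ligature libraries, 1.64, 1.92, 1.07 and 1.27 in ligature plus trauma, 19.8, 3.83, 47.4 and 1.93 in trauma and 10.5, 41.0, 4.61 and 0.857 in control. It passed as lower (-2.87 ± 0.73, adjusted p = 0.0114), but not without the 3 libraries rich in short transcripts (adjusted p = 0.0856). Krt12, the keratin of corneal epithelium, had 0.481 to 3.09 CPM with a ligature and 0 to 1.48 without, and did not pass (interval -0.18 to 2.46). Krt79 and Krt222 stayed at or below 4.3 CPM and did not pass. Krt79 passed as lower when ligature 4 was left out (log2 fold change -4.16, adjusted p = 0.0477).

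Promoters of the keratins that moved together are shown to let their start regions be compared. RefSeq promoters (build GRCm38.p6, read from the strand of the gene) were at hand for 20 of the 30 members. Each run below is the 100 bases before the transcription start, and capitals mark ATAAA, the core of a TATA box, where it begins 35 to 25 bases before that start. All lie on the minus strand: Krt5 at chr15:101712906-101713005, Krt13 at chr11:100121567-100121666, Krt76 at chr15:101892921-101893020, Krt10 at chr11:99389365-99389464, Krt24 at chr11:99285263-99285362, Krt14 at chr11:100206031-100206130 and Krt90 at chr15:101562951-101563050.
Krt5: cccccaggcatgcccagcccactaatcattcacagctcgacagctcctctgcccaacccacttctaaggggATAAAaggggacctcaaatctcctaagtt
Krt13: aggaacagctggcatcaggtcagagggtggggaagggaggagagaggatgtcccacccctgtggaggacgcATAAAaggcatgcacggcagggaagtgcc
Krt76: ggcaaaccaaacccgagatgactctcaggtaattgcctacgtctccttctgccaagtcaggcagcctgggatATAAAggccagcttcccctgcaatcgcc
Krt10: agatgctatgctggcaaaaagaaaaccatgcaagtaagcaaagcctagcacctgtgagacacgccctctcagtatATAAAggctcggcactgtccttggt
Krt24: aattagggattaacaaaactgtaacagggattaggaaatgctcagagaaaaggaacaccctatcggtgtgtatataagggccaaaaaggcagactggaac
Krt14: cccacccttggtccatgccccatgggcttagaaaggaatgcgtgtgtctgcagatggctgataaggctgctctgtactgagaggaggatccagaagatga
Krt90: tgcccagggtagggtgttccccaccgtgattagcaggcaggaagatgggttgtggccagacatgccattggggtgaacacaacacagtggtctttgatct
The first 4 hold ATAAA in that window and the last 3 do not. It was found there, on the strand of the gene, in 12 of 20 keratin promoters (60%) and in 3.57% of 27025 promoters of the same length. The longer TATAAA, which contains ATAAA, was there in 5 of 20 (25%) and in 1.96% of all. ATAAA was picked after the promoters had been read. Within 250 bases and on both strands, CCACCC, a motif that KLF factors bind, was in 8 of 20 (40%) and in 27.7% of all, and TGANTCA, the AP-1 motif, in 1 of 20 (5%) and in 6.87% of all. Krt13 and Krt76, which hold ATAAA in the window near the start, and Krt24 and Krt90, which do not, all passed as lower with the ligature. Only these letters were searched, so an AT-rich stretch spelled otherwise goes unmarked.

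Measured against each other, the keratins kept some proportions and lost others. Per kilobase, Krt13 was 0.199 to 1.79% of Krt14 with a ligature and 1.8 to 43.8% without, which do not overlap but nearly touch at ligature plus trauma 1 and control 4. In single libraries this percentage was 0.253, 0.199, 0.991 and 0.261 in the ligature libraries, 1.79, 1.62, 0.236 and 0.798 in ligature plus trauma, 43.8, 4.75, 41.2 and 2.35 in trauma and 7.25, 25.7, 8.7 and 1.8 in control. Krt16 stood at 7.48 to 14.6% of Krt14 with a ligature and 7.37 to 17.2% without. Krt17 stood at 24.3 to 55.9% with and 19.7 to 34.5% without, so its share relative to Krt14 reached higher with the ligature while its own level was lower. The Krt4 and Krt13 pair was uneven, with Krt4 at 0 to 45.5% of Krt13 with a ligature and 47.4 to 133% without. Against Epcam, a general epithelial adhesion gene, Krt13 per kilobase was 6.46 to 84.3% with a ligature and 86.5 to 6047% without. Against Cdh1, which encodes E-cadherin, these ranges overlapped (14.7 to 846% with and 288 to 14933% without). The ratios are descriptions and were not tested.

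**Figure D4:**
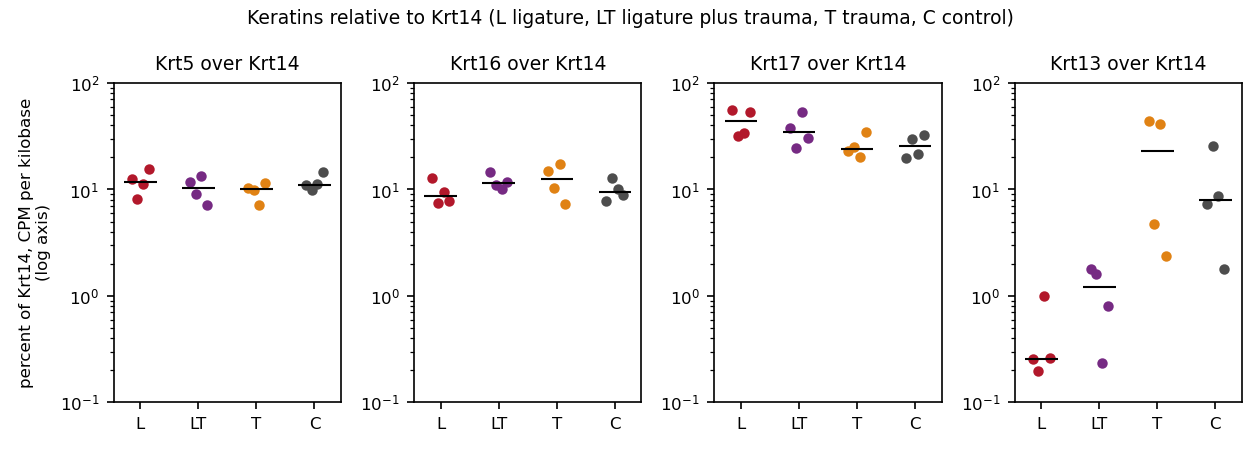
Level of Krt5, Krt16, Krt17 and Krt13 as a percentage of Krt14, all in CPM per kilobase (log axis), in each library of the ligature (L), ligature plus trauma (LT), trauma (T) and control (C) groups, with a bar at each median. Krt5 and Krt16 stay between 7.17% and 17.2% in every library, while Krt13 is at most 1.79% with a ligature and reaches 43.8% without.

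As shares of all keratin counts, the suprabasal mucosal class took 0.131 to 1.69% with a ligature and 1.93 to 38.8% without, with no overlap. The stress-induced class took 21.4 to 34.0% with and 13.4 to 23.3% without, overlapping, and the basal class 62.8 to 73.5% with and 44.2 to 72.0% without. Trauma 1, trauma 3 and control 2, with mucosal shares of 38.8%, 31.0% and 29.2%, had the lowest basal shares. Shares within a total move against each other, so a class can gain share without a gain in level.

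**Figure D5:**
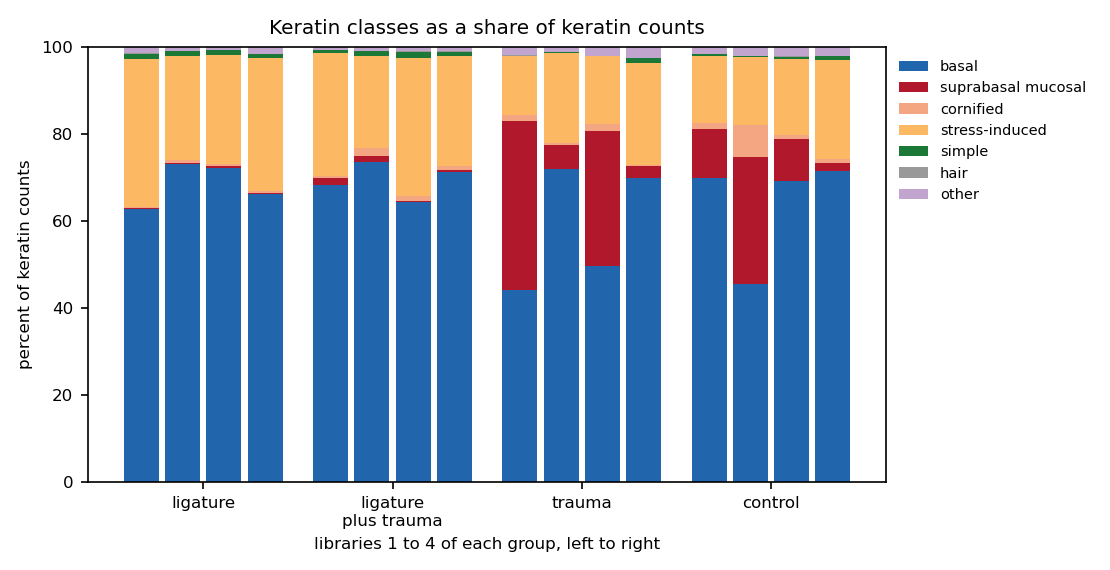
Counts of each keratin class as a percentage of the counts of the 30 keratins, 1 bar per library, libraries 1 to 4 of each group from left to right. Basal and stress-induced keratins fill nearly the whole bar in the 8 libraries with a ligature, and the suprabasal mucosal share is largest in trauma 1, trauma 3 and control 2.

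The single comparisons gave fewer calls. The comparisons with control all use the same 4 control libraries. In ligature against control, 11 keratins were lower (Krt1, Krt4, Krt10, Krt13, Krt15, Krt19, Krt24, Krt42, Krt76, Krt78 and Krt90) and 0 higher, where 4.78% of all genes passed as lower and 5.88% as higher. The median log2 fold change over the 30 was -1.95, against -0.05 over all genes. Krt13 stood at -6.60 ± 1.48 (adjusted p = 0.0109) and Krt19 at -3.74 ± 0.71 (adjusted p = 0.00389). Krt5 (-1.44 ± 0.54, adjusted p = 0.0986), Krt14 (-1.49 ± 0.58, adjusted p = 0.11) and Krt17 (-0.66 ± 0.55, adjusted p = 0.474) did not pass. Ranges lay wholly apart and lower for 8 keratins, where 9.15% of all genes did so, and apart and higher for 1, Krt18, where 9.97% did so. Unadjusted, 16 keratins had p under 0.05 as lower and 1, Krt18, as higher, against 13.2% of all genes as lower and 13.8% as higher. Krt18 had 1.45 ± 0.56 (adjusted p = 0.109), and DESeq2 called it higher (adjusted p = 0.0446). The count of 11 became 5 without the 3 libraries rich in short transcripts, 7 without ligature 2 and 7 without control 2. The share of all genes that passed in either direction was 10.7% with all libraries and 7.99, 7.17 and 6.68% in those 3 fits. The log2 fold change of Krt78 went with control 2 in particular: it was -8.93 with all libraries and -4.37 without control 2 (adjusted p = 0.0852).

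In ligature plus trauma against control, 14 keratins were lower (Krt1, Krt4, Krt5, Krt7, Krt10, Krt13, Krt14, Krt15, Krt19, Krt23, Krt42, Krt76, Krt78 and Krt90) and 0 higher, where 5.62% of all genes passed as lower and 6.83% as higher. The median over the 30 was -2.85, or -2.84 with genes at 0 in a whole group set to their bound, against -0.08 over all genes. Krt14 stood at -1.88 ± 0.59 (adjusted p = 0.0478) and Krt13 at -5.25 ± 1.39 (adjusted p = 0.0245). Krt16 (-1.53 ± 0.70, adjusted p = 0.15) and Krt17 (-1.24 ± 0.56, adjusted p = 0.144) did not pass. Without adjustment, 20 keratins had p under 0.05 as lower and 1 as higher, where 14.8% of all genes did as lower and 15.97% as higher. The higher one was Krt12, which DESeq2 called higher (log2 fold change 2.22). Ranges lay apart and lower for 7 keratins, where 10.4% of all genes did so, and apart and higher for 1, Krt12, where 10.8% did so. The count of 14 became 2 without the 3 libraries rich in short transcripts, 4 without ligature plus trauma 2, 5 without ligature plus trauma 3, 8 without ligature plus trauma 4, 6 without control 1 and 5 without control 2. In those 6 fits 3.26, 5.07, 4.71, 12.8, 6.2 and 6.07% of all genes passed in either direction, against 12.5% with all libraries.

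Ligature plus trauma against trauma compares overloaded teeth with and without a ligature. There 16 keratins were lower (Krt1, Krt4, Krt5, Krt13, Krt14, Krt15, Krt16, Krt17, Krt19, Krt23, Krt24, Krt32, Krt42, Krt76, Krt78 and Krt90) and 0 higher, where 3.27% of all genes passed as lower and 2.21% as higher, or 5.48% in all. The median over the 30 was -3.10, or -2.86 with genes at 0 in a whole group set to their bound, against -0.02 over all genes. Krt16 fell to 257, 87.6, 85.1 and 63.1 CPM in ligature plus trauma, against 559.5, 686, 2331 and 221 CPM in trauma (-2.94 ± 0.74, adjusted p = 0.0282). Krt17 (-2.09 ± 0.57, adjusted p = 0.0429) and Krt14 (-2.77 ± 0.61, adjusted p = 0.0157) fell as well. The 16 include Krt32, and also Krt1, Krt15, Krt24, Krt76 and Krt78, which met the count rule mainly through libraries without a ligature. Ranges lay apart and lower for 14 keratins, where 7.31% of all genes did so, and apart and higher for 1, Krt20, where 5.74% did so. Unadjusted, 20 had p under 0.05 as lower and 1, Krt20, as higher, against 10.5% of all genes as lower and 8.84% as higher. DESeq2 called 19 lower and 0 higher, in a fit where 10.2% of all genes passed in either direction. The count of 16 became 2 without the 3 libraries rich in short transcripts, 6 without trauma 3, 4 without ligature plus trauma 2, 5 without ligature plus trauma 3 and 5 without ligature plus trauma 4. In those 5 fits 1.77, 2.66, 2.65, 2.6 and 3.16% of all genes passed in either direction, against 5.48% with all libraries.

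No keratin passed the test between trauma alone and control. In trauma against control, 0 of 30 passed in edgeR, where 0.00477% of all genes (1 gene) passed. In DESeq2 and limma-voom 0 keratins passed too, where 0.546 and 0.00477% of all genes did. Unadjusted, p was under 0.05 for 1 keratin as higher (Krt32) and 1 as lower (Krt87, with no count in the trauma libraries), against 4.0% of all genes as higher and 2.92% as lower, and the median log2 fold change was 0.55, against 0.01 over all genes. Krt14 averaged 7293 ± 5205 CPM in trauma and 3915 ± 2951 CPM in control (SD, n = 4 each), and the 95% interval of its log2 fold change ran -0.32 to 2.12. For Krt13 the interval ran -0.57 to 4.53, and for Krt16 -0.06 to 2.89, so that a change of several fold was not detectable at this spread between libraries. Ranges lay wholly apart for 0 keratins, where 3.28% of all genes were apart and lower and 3.65% apart and higher.

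Nor did a keratin pass between ligature plus trauma and ligature alone. In ligature plus trauma against ligature, 0 of 30 keratins passed in edgeR, DESeq2 or limma-voom. Of all genes, 0% passed there in edgeR and limma-voom and 0.148% in DESeq2. Unadjusted, 2 keratins had p under 0.05 as lower, Krt23 (-2.37 ± 0.94) and Krt84, which was at 0 in ligature plus trauma, against 1.63% of all genes as lower. Ranges lay wholly apart for 0 keratins, where 0.778% of all genes were apart and lower and 0.663% apart and higher. The median over the 30 was 0.02, against -0.01 over all genes. Krt13 had an interval of -1.17 to 3.87 and Krt14 of -1.59 to 0.83. The interaction, the effect of trauma with a ligature minus its effect without one, passed for 0 of 30 keratins in edgeR, DESeq2 and limma-voom. Of all genes, 0% passed it in edgeR and limma-voom and 0.244% in DESeq2. Unadjusted, Krt23 and Krt18 had p under 0.05 for the interaction, with log2 values of -3.65 ± 1.29 for Krt23 and -1.80 ± 0.79 for Krt18, and 4.93% of all genes had such a p in either direction.

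Many genes that work with keratins fell too in the 8 against 8 comparison. The lists here and in the next paragraph were chosen with earlier results of these data known, so their counts are no independent support. Of 16 tested genes that anchor or bundle keratin filaments (desmosome plaque, hemidesmosome and cornified-layer proteins), 12 were lower with the ligature, 8 against 8, and 0 higher (median log2 fold change -1.84), where 10.7% of all genes passed as lower and 10.8% as higher. Ppl, encoding periplakin, which ties filaments to the cornified envelope, stood at -3.50 ± 0.58 (adjusted p = 0.000581) and Pkp3, a plaque protein of desmosomes, at -2.30 ± 0.42 (adjusted p = 0.00125). Rptn (-9.29 ± 1.41, adjusted p = 0.000312), which encodes repetin of the cornified layer, had a fold like those of the mucosal keratins. Of 17 transcription factors and regulators of epithelium, 13 were lower and 0 higher (median -2.69), among them Klf5 (-2.90 ± 0.36, adjusted p = 6.42e-05), Pitx1 (-2.89 ± 0.40, adjusted p = 0.00015) and the splicing regulator Esrp1 (-2.69 ± 0.47, adjusted p = 0.000884). Fewer passed in ligature against control, 3 of the 16 and 7 of the 17 as lower, where 4.78% of all genes did. In ligature plus trauma against control 10 and 8 passed as lower, where 5.62% of all genes did.

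Markers of several cell types that could be in the sample differed as well. Of 12 genes of oral epithelium other than keratins, 10 were lower and 0 higher with the ligature (median -1.90, with 10.7% of all genes lower and 10.8% higher), their sum being 316 to 1043 CPM with a ligature and 474 to 6034 CPM without. Dsp, for desmoplakin, fell (-2.84 ± 0.44, adjusted p = 0.000334), and so did Trp63, the regulator of basal cells (-2.32 ± 0.42, adjusted p = 0.0012). Against control, 2 of the 12 passed as lower in ligature and 5 in ligature plus trauma, where 4.78 and 5.62% of all genes did. Of 4 tested genes of junctional epithelium and enamel organ, 3 were lower, Odam among them (-3.37 ± 0.34, adjusted p = 1.66e-05), and the sums were 296 to 588 and 1701 to 8372 CPM. Neutrophil genes passed as higher in 4 of 6 (sums 1637 to 4345 CPM with a ligature and 507 to 5038 without), macrophage genes in 2 of 4 with 1 lower (546 to 1016 and 195 to 490.2 CPM), and endothelial and mesothelial genes in 2 of 3 tested (147 to 329 and 67.0 to 126 CPM), where Upk3b was at 0 throughout. Ligament fibroblast genes passed as lower in 4 of 7. Skeletal muscle genes passed as higher in 2 of 7, with sums of 6.27 to 795 CPM with a ligature and 3.29 to 135 without, ligature 2 being highest. Hair follicle genes passed as lower in 1 of 2 tested, with sums of 13.4 to 53.3 and 17.1 to 82.0 CPM. The other, Msx2, had medians of 25.4 CPM with a ligature and 15.4 CPM without. Salivary gland genes passed as lower in 1 of 3 (0.935 to 4.01 and 1.29 to 28.7 CPM, Prol1 at 0 throughout). Airway genes did so in 1 of 3 (0 to 8.04 and 0.73 to 40.2 CPM). The part of these cell types in the keratin results was not tested.

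Over the 16 libraries, the genes other than keratins whose log2 CPM ran most like Krt5 included Trim29 (Pearson's r = 0.965), Ckmt1, Sfn, which encodes the epithelial protein stratifin, and Pkp3 (r = 0.957). Those most like Krt13 were Sprr3, a cornified-envelope precursor of the mouth and esophagus (r = 0.975), Tgm5, Sptssb, Tgm3 and Calm4 (r = 0.965), the transglutaminases Tgm3 and Tgm5 being enzymes that cross-link the envelope. These are descriptions across libraries that also differ in treatment, and carry no p.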

How the data were processed

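Periodontal ligament RNA, enriched for poly(A) transcripts per the labels' protocols, was sequenced in 16 libraries of 4 groups (n = 4 each). The authors deposited a table of 55359 genes whose values are raw read counts, whole numbers before any scaling. The tools listed in the submitters' processing notes, without their roles, are HISAT2 2.2.1, StringTie 2.1.7, Trimmomatic 0.39, FastQC 0.11.9 and DESeq2 1.32.0, with the build GRCm39. How reads were counted, the annotation release and the use of strand are not given in those sources, so reads shared by overlapping genes or by near copies among the keratins cannot be told apart.

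Symbols for 52083 gene identifiers, and the exon lengths behind values per kilobase, came from GENCODE M21 on GRCm38, and 0.205% of counts fell in genes without a symbol. The members, classes and gene lists were chosen with earlier results of these data known. All 16 libraries entered 1 fit in edgeR 4.0.16 (R 4.3.3), with trimmed-mean scaling and its expression filter at a minimum count of 10. The quasi-likelihood test was adjusted by Benjamini-Hochberg over 20953 genes. The 8 against 8 comparison and the interaction are contrasts of this fit. The same procedure was run on simulated counts with known changes in the ligature group alone. Those counts held no excess of short transcripts in single libraries, so that run does not cover it. Total counts were 58458102 to 77468584, which makes counting error small beside the spread between libraries except for the scarce keratins. The bound for a gene at 0 in a whole group takes 3 counts over that group and covers counting error only.

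Values in every library were given for up to 3 members per class with the highest mean CPM and for any member that passed in any comparison, and up to 4 genes with the lowest p were named from each other list. Some genes that this rule or the likeness to Krt5 would name are not reported here. The alternatives were DESeq2 1.42.0, DESeq2 size factors inside edgeR, no expression filter, a filter of 50 counts in 4 libraries, a fit of only those groups being compared, a block for replicate number, limma-voom (limma 3.58.1) with sample weights, the 13 libraries not rich in short transcripts, the slope on transcript length as a covariate, and the omission of each library in turn.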

Additional observations from a re-analysis of the deposited data

Results flagged for a closer look

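Each keratin was examined in each group of 4 libraries where its highest level reached 1 CPM, 84 sets in all, and 1 set held a library far from the other 3; chance flags about 1 in 20 such sets. Krt90 had 41.1 CPM in trauma 1, against 91.7 to 104 CPM in the other 3 trauma libraries. The gap was 0.868 of the range of the group on the log2 scale, above the 95% critical value for 4 libraries.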

How the results depend on the processing

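The count of 20 keratins lower with the ligature (8 against 8) stayed within 1.5 times under the alternatives run for it except limma-voom, which left 11, and no keratin followed changed direction. A fit of the compared groups only does not apply to it, since it uses all 4 groups. Leaving out 1 library at a time gave 19 to 21 lower and 0 to 1 higher. In ligature against control the 11 lower became 3 with limma-voom and 5 with 13 libraries, where 14.5 and 7.99% of all genes passed, against 10.7%, and 1 keratin was higher with DESeq2 and with the compared groups only. In ligature plus trauma against control the 14 lower became 4 with limma-voom, 2 with 13 libraries and 5 with the length covariate, where 15.1, 3.26 and 5.63% of all genes passed, against 12.5% in edgeR with all libraries, and 1 was higher with DESeq2 and with the compared groups only. In ligature plus trauma against trauma the 16 lower became 6 with limma-voom and 2 with 13 libraries, where 4.45 and 1.77% of all genes passed, against 5.48%. Fewer libraries were in the 13-library fit, and the cause of the other shifts was not tested. Leaving out 1 library gave 7 to 11 lower in ligature against control, 4 to 16 lower and 0 to 1 higher in ligature plus trauma against control, and 4 to 17 lower in ligature plus trauma against trauma. It gave 0 to 0 in trauma against control, in ligature plus trauma against ligature and for the interaction.

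Correlations between libraries gave little sign that the replicate numbers pair them, but cannot exclude it. Same-numbered libraries of different groups deviated from their group means with a median correlation of 0.0207 over 24 pairs (-0.157 to 0.215). Of these, 5 pairs were over 0.1. Between different numbers the median was -0.00481 over 72 pairs (-0.300 to 0.236), and 8 pairs were over 0.1. With the number as a replicate block, 10 keratins were lower in ligature against control, 12 in ligature plus trauma against control, 13 in ligature plus trauma against trauma and 19 in the 8 against 8 comparison, where Krt84 no longer passed. Depth limits the scarcest keratins: Krt82, Krt83 and Krt87 had at most 17, 31 and 52 counts in any library.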
